A study of Rattus norvegicus with 6 samples.

Results

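The endothelin system is the set of genes for the vasoconstrictor peptide endothelin-1 (Edn1), the related peptide Edn3, the receptors Ednra and Ednrb, and the endothelin-converting enzyme Ece1. Members were the probe sets (the groups of oligonucleotides that read out a transcript on the array) whose platform symbol was one of these names alone, and a gene with several was to be read from its brightest. Of the 5 genes sought, 2 were found, Edn1 and Ece1, each with 1 probe set, out of 10411 named genes and 15866 probe sets in all. Edn3, Ednra and Ednrb were not analysed here, so that what follows covers a ligand and its activating enzyme and no receptor.

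The 6 arrays held RNA of intact cerebral arteries, the resistance branches of the basilar artery and circle of Willis, from Dahl rats, which become hypertensive when fed salt. From 7 weeks of age the animals of 3 pools ate low salt chow with 0.4% NaCl, and those of the other 3 pools ate high salt chow with 8% NaCl, 3 rats to a pool and 9 to a diet. The labels give 12 weeks on diet for low salt, and both 11 and 12 weeks for high salt. All rats ate the low salt chow before the start. The tissue is the whole wall, and the labels do not say which pools were frozen and which were kept in preservative. Since each sample is a bulk extract, fewer cells of a type and less RNA per cell cannot be told apart.

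Endothelin-1 is made as a long precursor that proprotein convertases such as furin cut to an inactive intermediate, big endothelin, and that Ece1, a membrane zinc protease, cuts again to the active peptide. In arteries the endothelium is the main source, and the peptide acts on smooth muscle through a Gq-coupled receptor that raises calcium and activates protein kinase C. The series asked which transcripts differ in the cerebral arteries of salt-fed Dahl rats. In these arrays neither Edn1 nor Ece1 differed between the diets beyond the spread of the pools. The Edn1 reading was near constant from pool to pool, while Ece1 ranged over 1.53 log2 units, most of it from 1 low salt pool.

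The sequences before the start of both genes are shown because the transcription factors known to act on the Edn1 promoter were measured on the same arrays. They are the 250 bases upstream of the annotated start, 5′ to 3′ on the gene's strand, from RefSeq on build GRCr8. Both of the found genes had an entry. Capitals mark matches to the motifs searched on both strands.
Edn1, chr17:22666688-22666937, minus strand: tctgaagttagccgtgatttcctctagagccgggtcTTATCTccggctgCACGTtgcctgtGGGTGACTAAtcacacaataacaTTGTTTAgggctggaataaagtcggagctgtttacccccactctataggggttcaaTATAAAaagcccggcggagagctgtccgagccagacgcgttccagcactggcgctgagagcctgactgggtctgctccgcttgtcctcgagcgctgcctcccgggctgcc
Ece1, chr5:155360781-155361030, plus strand: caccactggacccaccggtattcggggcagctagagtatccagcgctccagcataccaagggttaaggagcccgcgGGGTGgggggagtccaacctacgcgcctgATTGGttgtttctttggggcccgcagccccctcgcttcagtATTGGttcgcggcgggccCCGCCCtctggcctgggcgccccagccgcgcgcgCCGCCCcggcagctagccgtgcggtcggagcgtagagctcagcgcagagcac

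The Edn1 stretch held TTATCT, a form read by GATA factors, at position -214 from the start, and the AP-1-like TGACTAA at -186, which overlaps the reverse of the Klf-type motif CACCC at -189. It also held ACGTG, the core read by hypoxia-inducible factors, at -201, the FOXO-type TTGTTTA at -166 and the TATA-type TATAAA at -110. Of 27457 RefSeq stretches of the same length, TTATCT was found in 10.0%, TGACTAA in 1.98%, TTGTTTA in 3.79%, ACGTG in 16.9%, TATAAA in 13.1% and CACCC in 49.4%. The Ece1 stretch had none of these but CACCC, at -174. It held the GC box GGGCGG at -86 and -52 (present in 32.4% of all stretches) and CCAAT at -145 and -104 (34.3%), both in the reverse orientation, and neither motif was found in the Edn1 stretch. The second AP-1 form searched, TGANTCA, was in neither, and is in 6.36% of all. Ece1's stretch was 69.2% G and C with 25 CG pairs, Edn1's was 56.4% with 15, and the medians of all were 52.0% and 6. These matches describe letters only.

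Some arrays stood apart. Correlations over probe sets ran from 0.980 to 0.987 among high salt arrays, from 0.919 to 0.968 among low salt arrays, and from 0.926 to 0.988 across diets. Array medians ran from 7.96, on low salt replicate 1, to 8.17. The interquartile range of low salt replicate 1 was 2.57, and those of the other arrays ran from 2.92 to 3.18. Markers of the wall were bright, and so were those of astrocytes. The 11 of 12 smooth muscle markers measured had a median level of 12.8, and the 13 of 16 endothelial markers had one of 10.4. All 10 astrocyte markers were measured, with a median of 10.4, and their mean was 9.31, 10.8 and 8.58 on low salt replicates 1, 2 and 3 and 10.8, 10.5 and 10.5 on the high salt ones. How much brain tissue each pool held was not tested. Over all probe sets limma (a linear fit to each probe set that borrows variance from the others, with Benjamini-Hochberg adjustment) called 0 of 15866 at an adjusted p below 0.05 (0%). At an unadjusted p below 0.05 stood 735 with a positive difference (4.63%) and 111 with a negative one (0.7%). This split depended on scaling. It was 384 and 433 after median centring of the arrays, and 365 and 403 after quantile normalization.

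Edn1 (probe set 1369519_at, gene at chr17:22660799-22666687 in GRCr8) read 7.86, 7.79 and 7.94 on low salt replicates 1, 2 and 3, in log2 units of RMA (robust multi-array average, the authors' summary of a probe set). It read 7.89, 7.85 and 8.00 on high salt replicates 1, 2 and 3. The diets overlapped throughout, and the lowest and highest of the 6 values lay 0.21 apart. The means were 7.86 ± 0.075 (SD, n = 3) on low salt and 7.91 ± 0.076 on high salt. The difference, high minus low salt, was 0.053 ± 0.096 (SE), with a 95% interval from -0.18 to 0.29 and an adjusted p of 0.893 (limma, Benjamini-Hochberg). The interval covers 0.881-fold to 1.22-fold, so that a change smaller than this would not have been resolved with 3 pools a diet. The exact permutation test over arrays gave p = 0.5, two-sided, where 0.1 is the smallest that 3 against 3 can give.

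The level of Edn1 was in the middle of the arrays, at percentiles from 45.3 to 48.0, above the lower quartile of probe sets (6.53 to 6.65). Its SD over the 6 arrays was 0.073, against a median of 0.25 for the 2645 probe sets with a mean between 7.5 and 8.5, of which 3.33% varied less. No detection call was used, so how much of the Edn1 reading lies above background was not tested. The sign of the difference depended on scaling, -0.078 after each array was centred on its median and -0.055 after quantile normalization. The centring itself moved the median gene from 0.067 to -0.064.

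Ece1 (probe set 1367801_at, gene at chr5:155361031-155462723) read 10.6, 9.69 and 10.9 on low salt replicates 1, 2 and 3. On high salt replicates 1, 2 and 3 it read 11.2, 10.7 and 10.8. Low salt replicate 2 lay below every other array, and the other 5 values of both diets were interleaved. The means were 10.4 ± 0.64 (SD, n = 3) on low salt and 10.9 ± 0.30 on high salt. The difference was 0.47 ± 0.35 (SE), or 1.39-fold, with a 95% interval from -0.38 to 1.33 and an adjusted p of 0.803 (limma, Benjamini-Hochberg). In fold the interval runs from 0.769 to 2.51, so that neither a more than doubled value nor a modest decrease lay outside it. The exact permutation test gave p = 0.4, two-sided.

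Without low salt replicate 2 the Ece1 difference was 0.11 ± 0.21, and the unadjusted p by limma went from 0.222 to 0.615. Without low salt replicate 3 it was 0.73 ± 0.34, and without high salt replicate 1 it was 0.30 ± 0.40. It was 0.23 after quantile normalization and 0.27 with arrays weighted by their quality, with weights whose estimation stopped before it converged. It was positive in all of these, and within each array Ece1 stood at the 92.6, 76.6 and 92.1 percentiles on low salt and at 93.1, 89.1 and 89.0 on high salt. By that rank the other 2 low salt pools were no lower than the high salt pools of replicates 2 and 3.

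**Figure D1:**
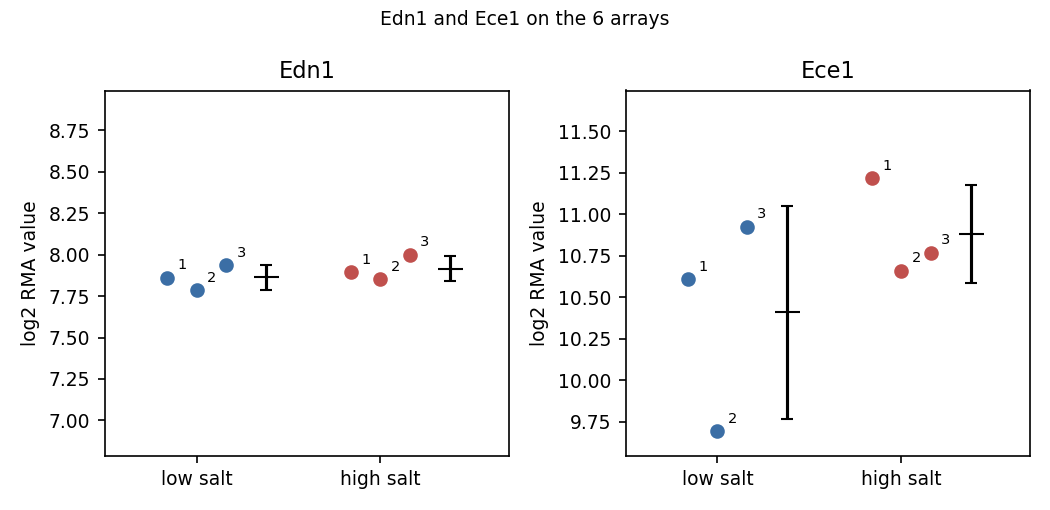
Log2 RMA values of Edn1 and Ece1 on each array (points, numbered by replicate; blue low salt, red high salt), with the mean and SD of each diet (black), on axes of equal span. The 6 Edn1 values lie within 0.21 of each other, and the Ece1 value of low salt replicate 2, 9.69, lies below the other 5.

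Low salt replicate 2 was also the array on which Edn1 was lowest, by a far smaller step. Of all 10411 genes 2410 (23.1%) had their lowest value there, against 6 of 13 endothelial markers, 7 of 11 smooth muscle markers and 0 of 10 astrocyte markers. More genes, 3800, were lowest on low salt replicate 1, with 4 endothelial, 2 smooth muscle and 1 astrocyte markers. The endothelial marker mean was 10.0, 9.85 and 10.2 on low salt replicates 1, 2 and 3 and 10.3, 10.2 and 10.4 on the high salt ones. Of these markers 12 of 13 had a positive difference, beside 60% of all genes, and 0 passed the threshold. The 3 brightest did not move as one. Cldn5, a tight junction protein, read 12.6, 12.7 and 13.2 on low salt, whereas Vwf, the clotting factor stored by endothelium, read 12.5, 11.1 and 12.4, lowest on replicate 2 as Ece1 was. The transporter Slco1a4 read 10.6, 12.1 and 11.2, highest there.

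The smooth muscle marker mean was 12.3, 11.7 and 12.4 on low salt replicates 1, 2 and 3, and 11.9, 11.9 and 11.8 on the high salt ones. All 11 muscle markers had a negative difference, 0 of them passed the threshold, and the brightest, Tpm2, Tagln and Myh11, filament and filament-binding proteins of contraction, differed by -0.05 ± 0.16, -0.09 ± 0.16 and -0.08 ± 0.16. The most negative, given after their values were seen, were the myosin light chain Myl9 (-0.74 ± 0.30), the actin nucleator Lmod1 (-0.69 ± 0.55) and smooth muscle actin (Acta2, -0.63 ± 0.30), and the other 8 lay between -0.18 and -0.05. The astrocyte mean was highest on high salt replicate 1 and low salt replicate 2 (10.8 on both) and lowest on low salt replicate 3 (8.58). Of the 10 astrocyte markers 9 had a positive difference, beside 60% of all genes, and 0 passed. The brightest, the connexins Gja1 and Gjb6 and the glutamate transporter Slc1a3, differed by 0.71 ± 0.49, 0.87 ± 0.57 and 1.26 ± 0.68. The part of cell makeup in the Ece1 values was not tested.

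**Figure D2:**
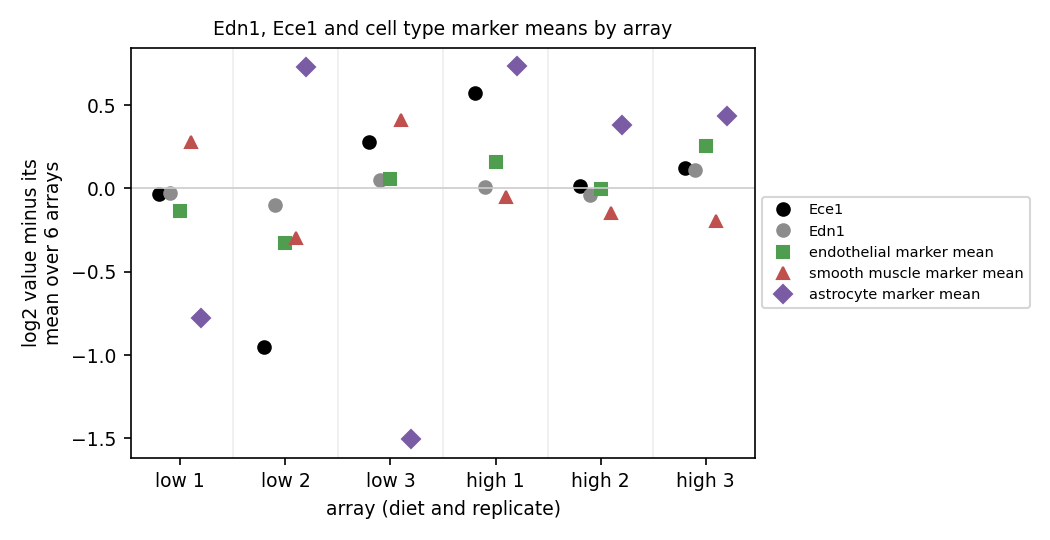
Edn1, Ece1 and the means of 3 marker lists on each array, in log2 units relative to each one's own mean over the 6 arrays. On low salt replicate 2 Ece1 and the endothelial and smooth muscle means lie below 0 while the astrocyte mean lies above it. On high salt replicate 1 Ece1 and the endothelial and astrocyte means lie above 0 while the smooth muscle mean lies below it.

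Each member was also set against the mean of each of 10 marker lists on the same array, in which any constant shift of an array cancels. Without a test, the diets did not overlap in 4 of these 20 pairings, which were Edn1 with the endothelial and red blood cell lists and Ece1 with the smooth muscle and pericyte lists. The 4 pairings with endothelial and smooth muscle markers, the cells in which the pathway is best known in arteries, are given first. Only the change between diets can be read from them, since they set different probe sets side by side. Edn1 minus the endothelial mean was -2.18, -2.06 and -2.29 on low salt and -2.44, -2.32 and -2.43 on high salt. The diets did not overlap, and the change was -0.22, but 17.6% of all genes lay lower without overlap by the same measure. After quantile normalization the change was -0.14. Edn1 minus the smooth muscle mean was -4.41, -3.91 and -4.47 on low salt and -4.05, -4.00 and -3.80 on high salt, which overlapped, with a change of 0.32 (0.49 when low salt replicate 2 was left out, 0.21 when replicate 3 was).

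Ece1 minus the smooth muscle mean was -1.66, -2.01 and -1.48 on low salt and -0.72, -1.19 and -1.03 on high salt. The change was 0.74 without overlap, and it ran from 0.59 to 0.85 with any 1 array left out. By the same measure 12.0% of all genes lay higher without overlap. Ece1 minus the endothelial mean overlapped between diets, at 0.57, -0.15 and 0.70 on low salt and 0.88, 0.49 and 0.34 on high salt. That change was 0.20. It was -0.064 without low salt replicate 2 and 0.042 without high salt replicate 1, but 0.30 without low salt replicate 1, 0.36 without low salt replicate 3 and 0.31 without high salt replicate 3.

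Edn1 minus the red blood cell mean changed by -0.68 without overlap, and 47.8% of all genes lay lower without overlap by the same measure. All 3 measured red blood cell markers had a positive difference, 0.94 ± 0.24 for beta globin (Hbb), 0.93 ± 0.37 for the haem synthesis enzyme Alas2 and 0.33 ± 0.24 for the anion exchanger Slc4a1, and 0 of them passed the threshold (limma, Benjamini-Hochberg). Ece1 minus the pericyte mean was 2.07, 1.47 and 2.276 on low salt and 2.77, 2.279 and 2.282 on high salt. The change was 0.50, and the diets met almost exactly at low salt replicate 3 and high salt replicate 2. By the same measure 5.63% of all genes lay higher without overlap.

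**Figure D3:**
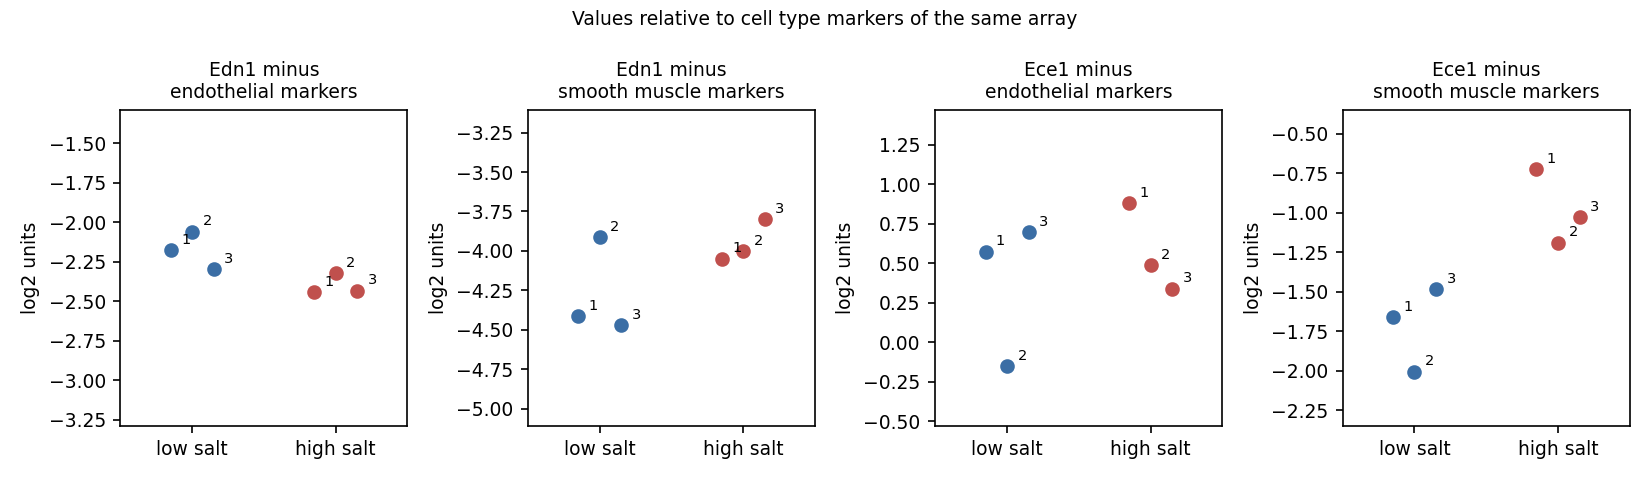
Edn1 and Ece1 minus the mean of the endothelial or smooth muscle markers of the same array (log2 units; points numbered by replicate; blue low salt, red high salt; the span of each axis is equal). The diets do not overlap for Edn1 minus endothelial markers or Ece1 minus smooth muscle markers, and do overlap in the other two panels.

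The genes whose values followed Edn1 most closely over the 6 arrays were Cog2 (a subunit of a Golgi tethering complex; Pearson r = 0.99), the basement membrane collagen Col15a1 (0.97) and the ribonuclease Rnaseh1 (0.97). They were taken from 6190 genes with a level above the median, 29 of which had r above 0.9. For Ece1 they were lamin A/C (Lmna, a protein of the nuclear lamina; 0.99), Ttc27 (0.99) and Arhgef25 (0.99), out of 6189 genes, with 118 above 0.9. Without low salt replicate 2, r over the other 5 arrays was 0.967, 0.996 and 0.980 for these 3. Lmna read 10.4, 9.18 and 10.8 on low salt and 11.0, 10.5 and 10.4 on high salt, the same low value on replicate 2. These correlations describe 6 shared arrays and have no p.

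Of 75 other genes of the endothelin pathway looked for, 66 were measured. By limma with Benjamini-Hochberg adjustment 0 passed the threshold. At an unadjusted p below 0.05 stood 5 of 66, beside 6.43% of all genes, and the diets did not overlap for 7, beside 12.0% of all genes. Positive differences were found in 35 and negative ones in 31, with a median of 0.043 beside 0.067 over all genes, where 60.0% were positive. The scalings turned the median, to -0.088 by centring and -0.086 by quantiles, and it was -0.022 without low salt replicate 2, and 0.16 over the 46 members above the 40th percentile of level.

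Among the other ligand and the enzymes that make or break down endothelins, 2 of 7 differed upward, beside 60% of all genes. The other 5 differed downward, and 0 passed the threshold. Furin, which makes the first cut of the precursor, read 7.26, 7.21 and 7.30 on low salt and 7.69, 7.44 and 7.34 on high salt. The diets did not overlap, and the difference was 0.23 ± 0.12 (adjusted p = 0.803, limma, Benjamini-Hochberg). After median centring it was 0.10, and the diets overlapped, since low salt replicate 1 then lay above high salt replicate 3. The convertase Pcsk7 differed by -0.18 ± 0.23. The remaining ones were dim, with means from 5.87 to 6.65, near or below the lower quartile of the arrays. They were the ligand Edn2 (-0.13 ± 0.17), neprilysin (Mme, which degrades endothelins; 0.04 ± 0.12), the mast cell chymase Cma1 (-0.18 ± 0.15), and the Ece1-related proteases Kel (-0.11 ± 0.12) and Ecel1 (-0.07 ± 0.13, with -0.17 ± 0.10 by its other probe set).

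Downstream of the receptor, 6 of 18 genes of the G protein and phospholipase step had a positive difference, beside 60% of all genes. Protein kinase C delta (Prkcd) read 9.22, 9.90 and 9.93 on low salt and 10.4, 10.1 and 10.3 on high salt, without overlap. The difference was 0.59 ± 0.22, with an adjusted p of 0.803 (limma, Benjamini-Hochberg), and 0.36 after quantile normalization. The beta isoform Prkcb read 7.82, 10.7 and 8.58 on low salt and 10.4, 10.7 and 10.4 on high salt, and the difference of 1.46 ± 0.73 came with a low salt SD of 1.51. Its second probe set gave 0.73 ± 0.35. The G protein subunits that couple endothelin receptors, Gnaq and Gna11, both differed by -0.14, with SEs of 0.15 and 0.16.

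Among the kinases and factors further downstream, the lowest p values belonged to the stress kinase p38 alpha (Mapk14, 0.66 ± 0.35) and the calcium-dependent factor Nfatc4 (0.25 ± 0.14, and 0.01 after quantile normalization). Of the 13 genes that turn receptor signals off or move receptors, 8 were positive, beside 60% of all genes. Rgs4, a GTPase activator for Gq and Gi, differed by -0.92 ± 0.22 without overlap, and by -0.29 ± 0.24 with its second probe set. Beta-arrestin 2 (Arrb2), which uncouples and internalizes receptors, differed by 0.47 ± 0.17 with overlap.

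Genes that regulate Edn1 transcription were on the positive side in 11 of 14 cases, beside 60% of all genes. Their median was 0.26 (0.13 by either scaling), and 0 passed the threshold. After median centring Jun (-0.04) and Ppara (-0.04) turned negative. Gata2, which binds sequences such as the TTATCT printed above, read 8.96, 9.08 and 9.32 on low salt and 10.3, 9.66 and 9.64 on high salt. The diets did not overlap, and the difference was 0.75 ± 0.21 (unadjusted p = 0.0132, adjusted p = 0.803, limma, Benjamini-Hochberg). Klf4, a zinc finger factor that binds CACCC-type sequences, read 10.6, 10.9 and 10.7 on low salt and 11.4, 11.0 and 11.3 on high salt. It too did not overlap, and differed by 0.51 ± 0.15, or 0.29 after quantile normalization. Edn1 itself stayed within 0.21 log2 units over these same arrays, as shown above. Whether these factors act on Edn1 in this tissue was not tested.

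For Jun the difference depended on the probe set, while for Fos and Hif1a no probe set gave a difference beyond its SE. The brightest of Jun differed by 0.09 ± 0.16. The others, named here after their values were seen, gave 1.46 ± 0.33 (8.60, 8.64 and 9.74 on low salt, 10.5, 10.6 and 10.3 on high salt, adjusted p = 0.803, limma, Benjamini-Hochberg) and 0.80 ± 0.26. Fos read 8.67, 11.2 and 10.9 on low salt, and 10.7 on each high salt array, a difference of 0.44 ± 0.67, beside -0.05 ± 0.15 by its dimmer second probe set. Hif1a, the hypoxia-inducible subunit, differed by 0.43 ± 0.50 by its brightest probe set and by -0.21 ± 0.21 by its other one. Foxo1 differed by -0.09 ± 0.32, and by 0.02 ± 0.09 and -0.11 ± 0.12 by its other probe sets. The differences of Fos, Hif1a and Foxo1 were each smaller than their SE. Which probe set of Jun reads its transcript more truly was not tested.

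**Figure D4:**
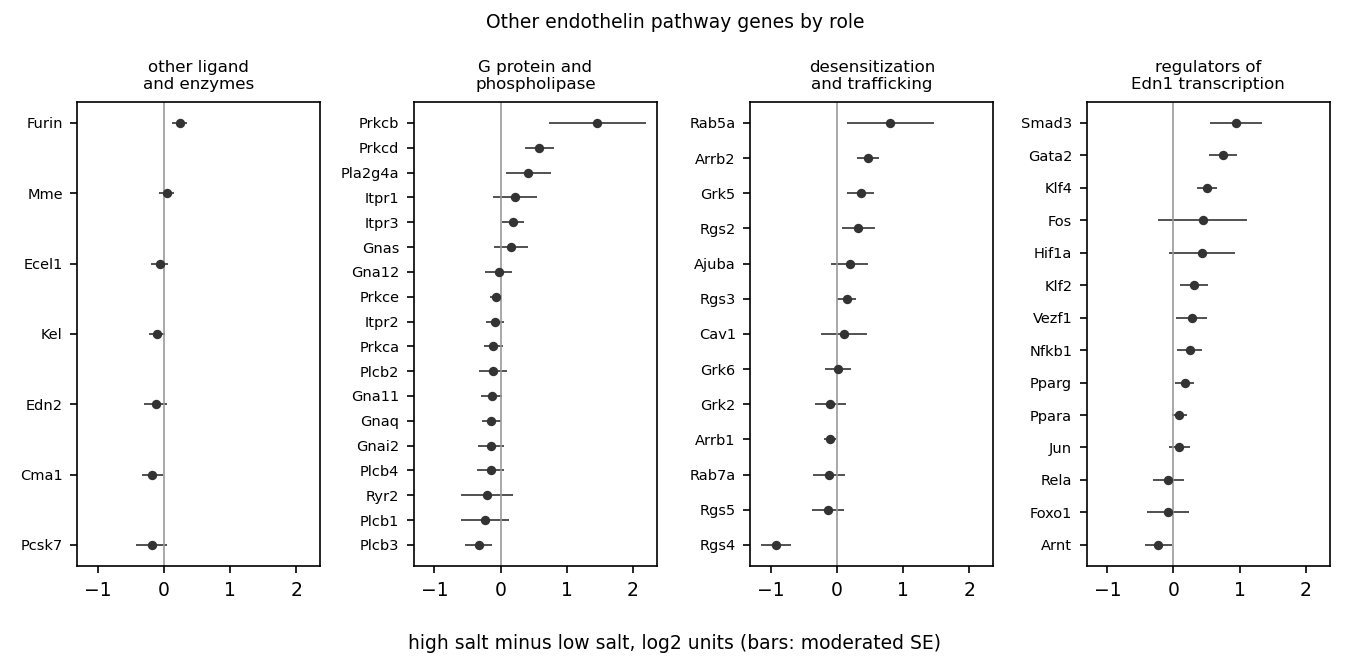
Difference between diets (high salt minus low salt, log2 units) of 52 of the 66 other endothelin pathway genes, 1 point per gene by its brightest probe set, with the moderated SE as bars, in 4 panels by role. Of these, 45 lie within 0.5 of 0, with Prkcb (1.46), Smad3 (0.95) and Rgs4 (-0.92) farthest out.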

How the data were processed

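The deposited log2 values, 1 per probe set and array, were made by the authors with RMA, per the submitters' processing notes. Its version was not found in the labels, and base 2 was read from the range of the values. Of 15923 rows, 57 control probe sets were left out. Per the platform's annotation, 12783 probe sets had 1 symbol, 312 several and 2771 none here. Edn3, Ednra and Ednrb were not analysed here, so the planned comparison of the receptors was not made. Tests used limma 3.58.1 in R 4.3.3 on all 15866 probe sets, 3 arrays against 3, with no block, and Benjamini-Hochberg adjustment. Exact permutation tests used scipy 1.17.1. Alternatives were other scalings, a filter on level, other variance priors, weighted arrays, a replicate block, 1 array left out, averaged probe sets, and 1 probe set per gene. The limma fit was tested on simulated data. The members and lists were chosen with earlier results of these data known. Named were the members, all measured genes of the ligand and enzyme role, the 2 of lowest p in each other role, the 3 brightest endothelial, smooth muscle and astrocyte markers, and the 3 genes most like each member. Other pathway genes given are examples outside that rule, chosen after their values were seen. The replicates are pools of separate rats, and their number limits the precision. Same-numbered arrays of the diets did not deviate together (correlations of 0.04, -0.27 and 0.04). For 14 of the pathway genes, the count by role is not reported here.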

Additional observations from a re-analysis of the deposited data

How the results depend on the processing

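Neither Edn1 nor Ece1 passed the threshold in any of 15 alternatives, and 0 probe sets were called in all 14 run for the whole table, with a lowest adjusted p of 0.0501 without low salt replicate 2 (limma, Benjamini-Hochberg) beside 0.540 with all arrays; at an unadjusted p below 0.05 stood 2722 and 846. After median centring the split at that p was 384 higher and 433 lower, and with quantile normalization 365 and 403. With array weights, which did not converge, 1439 probe sets stood there, and without high salt replicate 1 there were 366. Ece1 kept a positive sign in all 15, from 0.11 to 0.73 with 1 array left out. Edn1 turned to -0.078 by centring and -0.055 by quantile normalization, and ran from 0.011 to 0.091 with 1 array left out. The pathway median was -0.088 by centring, -0.086 by quantile normalization and 0.16 above the 40th percentile, and ran from -0.022 to 0.069 with 1 array left out. With the replicate number as a block, Edn1 differed by 0.053 ± 0.12 and Ece1 by 0.47 ± 0.26 (adjusted p = 0.961 and 0.893, limma), and 716 probe sets stood at an unadjusted p below 0.05. Of the 9 pairs of a low and a high salt array, the highest correlation of deviations, 0.37, was between low salt replicate 2 and high salt replicate 3. Values relative to marker means were recomputed in settings chosen after seeing the data. The comparison of Ednrb with Ednra was not run.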
